A study of Mus musculus with 4 samples.

Results

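The distal regions described here were open mainly in adult mammary luminal progenitor nuclei, and 1084 of the 145453 distal regions deposited for the study (0.745%) met the rule that chose them. The deposited reads came from single-nucleus ATAC-seq, in which the Tn5 transposase tags open chromatin and barcodes mark each nucleus. Nuclei were from wild-type CD1 mice, an outbred strain, sorted as EpCAM-positive and lineage-negative mammary cells from fetuses at embryonic day 18 or adults of 8 weeks, with 2 biological replicate libraries at each stage. No treatment or genetic change is named, and how many animals gave each library is not given in the sources used here. The authors kept 882 and 1695 fetal nuclei and 2465 and 2804 adult nuclei, with 2427372 to 7777521 reads in distal regions per library. No barcode was shared between libraries.

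The authors' clusters carry numbers only. Reads of listed nuclei were summed into 5 classes: luminal progenitor (clusters 3 and 7, 1735 nuclei), basal (1 and 8, 1060 nuclei), mature luminal (2 and 11, 2086 nuclei), fetal luminal-like (5 and 9, 1594 nuclei) and fetal basal-leaning (4 and 12, 815 nuclei). CPM is the reads in a region scaled to 1000000 distal reads of a class. A region was kept where its CPM in the luminal progenitor class was at least 10 and at least 3 times that of every other class, with 0.5 added to both sides of a ratio. The difference between luminal progenitors and the other classes is therefore what chose the regions, and it is given below as a description with no test. Clusters 6, 10, 13 and 14 took no part in the choice.

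The class names were checked over gene spans with 2000 bases on either side, as CPM of reads over gene spans. The 8 luminal progenitor markers summed to 922 in the luminal progenitor class, 631 in the fetal luminal-like class, 409 in the fetal basal-leaning class, 322 in the basal class and 273 in the mature luminal class. Of these 8 genes, 5 were highest in the luminal progenitor class, while Aldh1a3 and Csn3 were highest in the fetal luminal-like class and Itgb3 in the basal class. All 8 basal markers were highest in the basal class and 7 of 8 mature luminal markers in the mature luminal class. Summed markers of immune cells lay between 69.4 and 88.7 in the 5 classes, and their part in the results was not tested.

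Luminal progenitors are the hormone receptor-poor luminal cells of the mammary duct. They give rise to the milk-secreting alveolar cells in pregnancy, and are known for the receptor tyrosine kinase Kit, the ETS factor Elf5 and genes of innate defence. Distal regions hold enhancers, which bind transcription factors and act on promoters over a distance, so they often differ more between cell types than promoters do.

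No genome sequence of the files' build was used here, so letters could be read only where a region overlapped a promoter window of RefSeq (build GRCm38.p6, 250 bases before to 50 after an annotated start). By at least 150 bases, 17 of the 1084 regions overlapped such a window. The 250 bases before the start are shown for 6 of them, 5′ to 3′ on the strand of the gene. They were picked, after their letters were seen, to show windows with each motif, with both and with neither. Capitals mark the ETS letters GGAAGT and the C/EBP letters TTGCNNAA on either strand.
Gm31583: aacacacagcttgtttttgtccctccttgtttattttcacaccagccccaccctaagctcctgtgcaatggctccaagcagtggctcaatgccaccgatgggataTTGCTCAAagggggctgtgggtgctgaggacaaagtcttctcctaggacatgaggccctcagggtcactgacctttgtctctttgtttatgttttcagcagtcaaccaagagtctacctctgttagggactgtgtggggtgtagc
Pparg: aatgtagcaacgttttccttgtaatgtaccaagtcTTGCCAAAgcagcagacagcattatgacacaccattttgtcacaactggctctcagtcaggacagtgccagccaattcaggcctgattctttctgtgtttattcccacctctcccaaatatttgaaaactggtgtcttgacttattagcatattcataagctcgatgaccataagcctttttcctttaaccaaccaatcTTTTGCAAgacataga
Tmem144: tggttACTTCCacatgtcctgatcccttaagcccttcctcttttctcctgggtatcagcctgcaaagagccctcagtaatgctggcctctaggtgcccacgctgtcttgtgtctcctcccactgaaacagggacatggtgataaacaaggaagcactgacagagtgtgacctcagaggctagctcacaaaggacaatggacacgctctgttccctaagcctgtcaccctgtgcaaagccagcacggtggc
Plb1: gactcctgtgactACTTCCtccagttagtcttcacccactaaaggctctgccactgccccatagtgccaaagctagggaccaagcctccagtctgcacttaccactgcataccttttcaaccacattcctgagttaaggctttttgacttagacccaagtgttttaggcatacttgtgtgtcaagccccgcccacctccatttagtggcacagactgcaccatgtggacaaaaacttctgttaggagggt
Gm39884: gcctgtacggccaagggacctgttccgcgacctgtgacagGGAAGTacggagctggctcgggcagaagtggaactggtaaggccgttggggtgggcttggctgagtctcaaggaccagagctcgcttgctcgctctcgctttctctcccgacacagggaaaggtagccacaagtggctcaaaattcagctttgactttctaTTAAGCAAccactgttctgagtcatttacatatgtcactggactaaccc
Gm30733: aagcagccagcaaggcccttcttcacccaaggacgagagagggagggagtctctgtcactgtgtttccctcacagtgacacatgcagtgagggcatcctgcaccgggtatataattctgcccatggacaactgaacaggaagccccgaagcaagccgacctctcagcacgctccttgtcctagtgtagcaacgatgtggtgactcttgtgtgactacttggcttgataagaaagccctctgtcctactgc
The stretches lie at chr16:24090066-24090315 (minus strand), chr6:115421816-115422065 (plus), chr3:79852769-79853018 (minus), chr5:32353330-32353579 (plus), chr2:93941883-93942132 (plus) and chr2:166286590-166286839 (minus), in the order printed. Gm31583, Gm39884 and Gm30733 are predicted genes, Pparg encodes a nuclear receptor of lipid metabolism and Plb1 a phospholipase. The Pparg stretch holds 2 C/EBP matches, the Gm31583 stretch 1, the Tmem144 and Plb1 stretches 1 ETS match each, the Gm39884 stretch 1 of each, and the Gm30733 stretch neither.

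The regions under these stretches show the levels the rule asked for. The Gm30733 region (chr2:166286104-166287103) had 26.6 and 21.0 CPM in luminal progenitor nuclei of adult replicates 1 and 2. It stayed at or under 3.01 CPM in the 4 other classes of the rule in every library. The Gm31583 region (chr16:24089820-24090819), whose nearest gene by span is the transcriptional repressor Bcl6 at 100954 bases, had 14.5 and 26.3 CPM and at most 1.24 CPM in the 4 other classes. The Pparg region (chr6:115421276-115422275) had 12.03 and 9.26 CPM, with 0 reads in the basal and fetal basal-leaning classes. The Tmem144 region (chr3:79852202-79853201) had 47.1 and 34.6 CPM in luminal progenitors and 11.2 CPM in the fetal luminal-like class of both fetal libraries.

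Whole windows of 300 bases were searched, with 1 window per region, taken by largest overlap, then gene symbol, then start. The C/EBP letters stood in 9 of the 17 regions (52.9%) and in 400 of 3051 distal regions with such a window (13.1%). Of all 32851 RefSeq windows, 10.8% held them. The ETS letters stood in 7 of 17 (41.2%), against 23.5% of the distal set and 23.8% of all windows. The Tmem144 match printed above is not among the 7. Both windows of that region overlap it by 300 bases, and it was counted by that of Gm40073, first by symbol, which holds no ETS letters. TEAD letters (GGAATG) were in 5 of 17 (29.4%), against 18.2% of the distal set, and AP-1 letters (TGANTCA) in 2 of 17 (11.8%), against 13.1%. NF-kB letters (GGGANTTCC) were in none of the 17 windows and in 1.74% of the distal set. Other motifs were searched as well. RUNX letters stood in 17.6% of the 17 (18.7% of the distal set) and AP-2 letters in 11.8% (16.0%). STAT, SOX and GRHL letters stood in 5.88% each (8.55%, 10.6% and 2.06%), and NFI, FOX, GATA and ERE letters in none. C/EBP and ETS, marked in capitals above, stood in more of the 17 than any other motif searched. These are counts of letters in 17 windows near annotated starts, and the other 1067 regions were not searched.

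The chosen regions were of low to moderate depth. Luminal progenitor CPM ran from 10.1 to 116 with a median of 17.5, which is 41 to 472 reads with a median of 71. Medians in the same regions were 1.73 CPM in the basal, 1.70 in the mature luminal, 2.73 in the fetal luminal-like and 1.42 in the fetal basal-leaning class. The ratio to the highest other class had a median of 4.13 and a maximum of 34.4. It lay between 3 and 4 in 497 regions and was 10 or above in 48. The highest other class was the fetal luminal-like class in 516 regions (47.6%), mature luminal in 246, basal in 212 and fetal basal-leaning in 110.

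The threshold cuts through a continuous range. Just inside lay regions nearest to Ccn2, Sox5 and Mbtd1, with ratios of 3.00 in each case. Just outside lay regions with Mob3b, Ifrd1 and 1700012A03Rik as nearest genes, also at 3.00 when rounded. With CPM of all reads of a class in place of its distal reads, 300 regions met the rule, all among the 1084. The minimum of 10 CPM was kept there, and all reads outnumber distal reads, so the level asked for was higher. A minimum of 20 CPM of distal reads left 446 regions.

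The 10 largest ratios belong to regions with few or no reads in the 4 other classes of the rule. Highest was a region within Clnk, an adaptor protein of immune cell signalling (chr5:38785714-38786713). It had 51.1 and 57.5 CPM in luminal progenitor nuclei of the 2 adult libraries, and 0 to 2.88 CPM in the other classes and libraries. A region 11723 bases from Crp, the acute-phase C-reactive protein (chr1:172711689-172712688), had 33.1 and 37.5 CPM, and at most 1.56 CPM in the 4 other classes. Regions within Nos1ap (26.1 and 39.0 CPM), an adaptor of neuronal nitric oxide synthase, and within Atp6v0a2 (28.1 and 31.2 CPM), a subunit of the vacuolar proton pump, had at most 1.40 CPM in the 4 other classes. In all of these the luminal progenitor values of both adult libraries lay far above those of the 4 other classes. Cluster 10, which the rule left out, had 31.3 CPM at Crp (19 reads) and 13.2 CPM at both Nos1ap and Bcl6 (8 reads each), against 3.29 CPM at Clnk (2 reads).

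Only 2 regions had 0 reads in all 4 other classes. They lie at chr4:19967480-19968479, 39415 bases from Ttpa, and at chr8:47754773-47755772, 40842 bases from Cdkn2aip. Their luminal progenitor levels were 8.02 and 14.1 CPM and 7.02 and 14.1 CPM, from 45 and 43 reads in all. The remaining members of the top 10 lay in or near Exoc4, Gm30733, Bcl6 and Zbtb38, with ratios of 14.8 to 15.5.

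**Figure D1:**
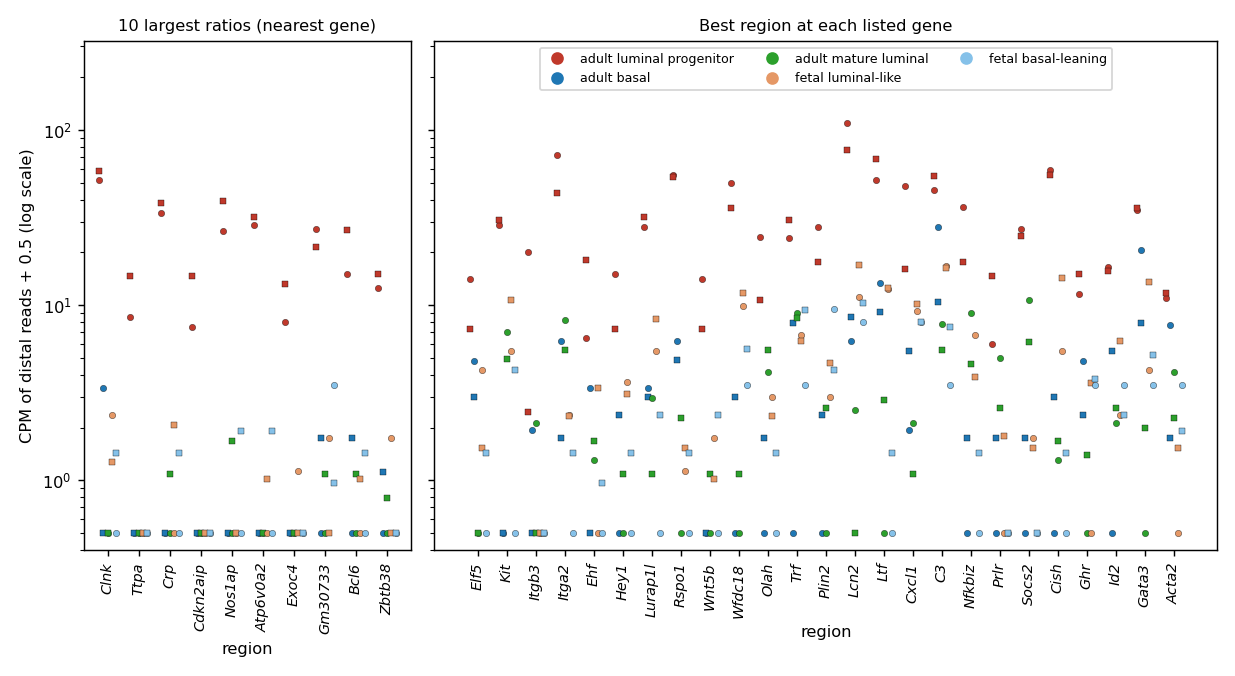
CPM of distal reads with 0.5 added (log axis) in each library (circles replicate 1, squares replicate 2) for the 10 regions with the largest ratios, by nearest gene, and for the region of highest level at each listed gene (lists are given in the text). Red points are luminal progenitor nuclei, and the other 4 colours the other classes. Red points stand apart at Clnk, Crp, Itga2, Rspo1 and Lcn2, while at Itgb3 and Ehf 1 red point lies near or among the rest.

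Among the 20 listed luminal progenitor genes, 10 had a chosen region nearest to them or within 50000 bases of their span. By nearest gene alone, a narrower measure, 905 of the 16177 genes nearest to a distal region had a chosen one. By nearest gene, 14 of 427 distal regions of the list were chosen (3.28%), beside 0.745% of all distal regions. Kit was the nearest gene of 7 of the 14. All lists were drawn with earlier results of these data known. A region within Itga2, a collagen-binding integrin subunit (chr13:114852270-114853269), had 71.2 and 43.4 CPM in luminal progenitors. Its other values were 7.71 and 5.03 CPM in mature luminal nuclei, 5.75 and 1.24 CPM in basal nuclei, and at most 1.87 CPM in fetal classes. A region 37358 bases from Rspo1, a secreted enhancer of Wnt signalling (chr4:124948044-124949043), had 55.1 and 53.6 CPM and at most 5.75 CPM in the 4 other classes. Its nearest gene was 9930104L06Rik, at 3383 bases. The 2 adult libraries gave nearly equal luminal progenitor values at Rspo1 and differed at Itga2, with both above the 4 other classes. Cluster 10 had 19.7 CPM at Rspo1 and 21.4 CPM at Itga2. A region 48862 bases from Lurap1l (chr4:81003163-81004162) had 27.6 and 31.2 CPM in luminal progenitors and at most 7.79 CPM in the 4 other classes.

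The next 5 regions of this list rested on 41 to 48 luminal progenitor reads each. The region 28970 bases from Elf5, the ETS factor of alveolar cell fate (chr2:103382129-103383128), had 13.5 and 6.83 CPM and a ratio of 3.01. At Itgb3, an integrin subunit (chr11:104662821-104663820), the values were 19.5 CPM in adult replicate 1 and 1.95 CPM in adult replicate 2. At Ehf, another epithelial ETS factor (chr2:103300338-103301337), they were 6.01 and 17.6 CPM. The regions 44161 bases from Hey1, a Notch target, and within Wnt5b, a secreted Wnt ligand, had 14.5 and 13.5 CPM in adult replicate 1 and 6.83 CPM each in replicate 2. Each of these 5 regions was at or above 10 CPM in 1 adult library only. Aldh1a3, Elf3, Notch3, Tspan8, Cxcr4, Bmpr1b, Cldn1, Sox10, Sox9 and Kcnn4 had no chosen region within that distance.

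Kit had more chosen regions than any other gene, 7 of the 37 distal regions that have it as nearest gene or lie within 50000 bases. Kit spans chr5:75574987-75656722 on the plus strand, and the 7 regions lay from 29626 bases before its start to 109093 bases after it. The upstream region (chr5:75544862-75545861) had 28.1 and 30.2 CPM in luminal progenitors, 5.00 and 10.1 CPM in fetal luminal-like nuclei, 6.49 and 4.44 CPM in mature luminal nuclei and 0 reads in basal nuclei. The region 65692 bases after the start, inside the gene, had 28.1 and 28.8 CPM, and the one 109093 bases after it 23.6 and 25.4 CPM. Over the 7 regions, basal nuclei had 0 to 0.863 CPM.

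Not every Kit region was specific. A region 104954 bases before the start was the highest of the locus, at 45.1 CPM in luminal progenitors, but it reached 26.4 CPM in the fetal luminal-like class and was not chosen. One 80770 bases before the start, at 14.05 CPM, missed the rule with a ratio of 2.99. The region before the start with the most reads was thus open in the fetal luminal-like class as well, while 6 of the 7 chosen regions lay after the start site.

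**Figure D2:**
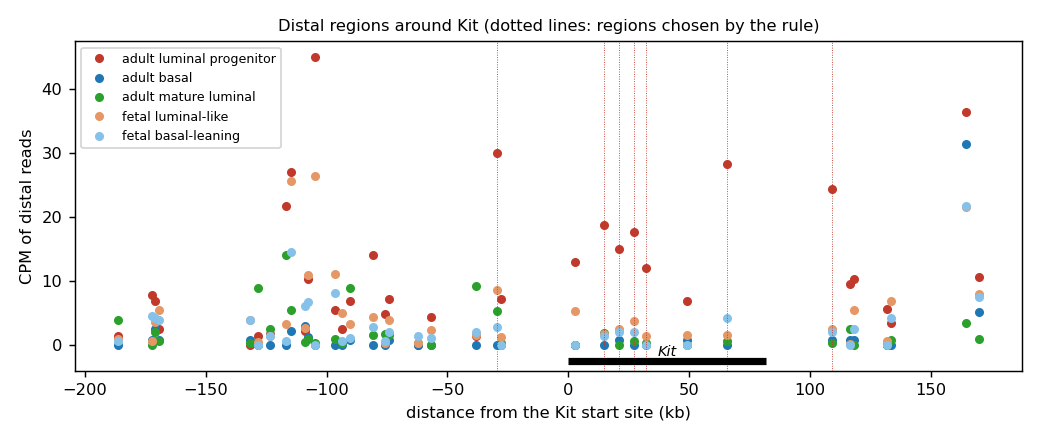
Distal regions around Kit by distance from its start site in kilobases (horizontal axis) and pooled CPM of distal reads in each of the 5 classes (vertical axis), with 1 set of points a region, the gene as a black bar and the 7 chosen regions at dotted lines. Luminal progenitor points (red) stand above the others at the dotted lines, while the highest red point, 104954 bases before the start, has a fetal luminal-like point at 26.4 CPM below it.

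The densest windows of 100000 bases held 4 to 6 chosen regions. The Kit window held 6 of its 9 distal regions. Slco2b1, an organic anion transporter, had 4 of 6, Thsd4 4 of 10, Scd1, which makes monounsaturated fatty acids, 4 of 12, Ntn1, the guidance ligand netrin-1, 4 of 14, and Kcnk5, a potassium channel, 4 of 22. Summed over its 4 regions, the Ntn1 window had 161 and 168 CPM in luminal progenitors of the 2 adult libraries, and pooled sums of 15.5 CPM in basal, 11.9 in mature luminal, 12.02 in fetal luminal-like and 7.47 in fetal basal-leaning nuclei. Most regions were alone: 771 of the 905 nearest genes had 1 chosen region. Another chosen region lay within 50000 bases of 22.4% of them, beside 35.8% for 2457 regions chosen by the same rule for basal nuclei and 46.2% for 6742 chosen for mature luminal nuclei. These larger sets also have more members to lie near.

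Milk and alveolar genes had a chosen region at 4 of 20. By nearest gene, 6 of 86 distal regions were chosen (6.98%), beside 0.745% of all distal regions, a difference that was not tested. Plin2 was the nearest gene of 3 of the 6. The region 5286 bases from Wfdc18, a secreted whey-type protein (chr11:83716646-83717645), had 49.1 and 35.1 CPM in luminal progenitors and 9.37 and 11.2 CPM in fetal luminal-like nuclei. Others lay within Trf, the iron carrier transferrin (23.6 and 30.2 CPM), and 13038 bases from Plin2, a lipid droplet protein (27.6 and 17.1 CPM). The last lay 22014 bases from Olah, a medium-chain fatty acid thioesterase (24.1 and 10.2 CPM), with Meig1 as nearest gene. None of the listed caseins, nor Wap or Lalba, had one within 50000 bases.

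Innate defence genes had a chosen region, nearest or within 50000 bases, at 7 of 20, with the same highest region at Cxcl1 and Cxcl2. By nearest gene, 4 of 153 distal regions were chosen (2.61%), beside 0.745% of all distal regions, a difference that was not tested. The region in Lcn2, an iron-sequestering antibacterial protein (chr2:32383710-32384709), had 109 and 76.6 CPM in luminal progenitors. It had 10.6 and 16.4 CPM in fetal luminal-like nuclei, 7.52 and 9.83 in fetal basal-leaning, 5.75 and 8.04 in basal and 2.03 and 0 in mature luminal nuclei. The region 19181 bases from Ltf, the milk protein lactoferrin (chr9:110999112-111000111), had 51.1 and 67.3 CPM, with Rtp3 as nearest gene. The region 2619 bases from complement C3, with Trip10 as nearest gene, had 45.1 and 54.1 CPM, with 27.3 CPM in basal nuclei of adult replicate 1. A region near the chemokine genes Cxcl1 and Cxcl2 differed between adult libraries, at 47.1 and 15.6 CPM, and values in the 4 other classes were at most 9.61 CPM. In a region 34444 bases from Nfkbiz, a nuclear regulator of NF-kB targets, the values were 35.6 and 17.1 CPM.

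Genes of prolactin, growth hormone and JAK-STAT signalling, which drives alveolar differentiation, were listed with Gata3, Id2, Nfib, Egfr, Erbb4 and Tnfrsf11a. Of these 15 genes, 6 had a chosen region, nearest or within 50000 bases. By nearest gene, 7 of 537 distal regions were chosen (1.30%), beside 0.745% of all distal regions, a difference that was not tested. Gata3 was the nearest gene of 3 of the 7. The highest region of the list lay 12448 bases from Cish, a feedback inhibitor (chr9:107315232-107316231), with Hemk1 as nearest gene. It had 58.6 and 55.1 CPM in luminal progenitors and 5.00 and 13.8 CPM in fetal luminal-like nuclei. The other classes of the rule had at most 2.48 CPM there, and cluster 10 had 34.5 CPM. A region 47766 bases from Socs2, another feedback inhibitor, had 26.6 and 24.4 CPM. A region with Gata3, a luminal transcription factor, as nearest gene had 34.6 and 35.1 CPM, with 20.1 CPM in basal nuclei of adult replicate 1, and lay 194027 bases from it. The regions counted for Id2 and Ghr lay 215179 and 60777 bases from those genes. The receptor gene Prlr had 1 region at 5.51 and 14.1 CPM. It was also the single hormone-sensing gene of 10 with a chosen region (1 of 195 by nearest gene, 0.513%). Of 10 basal genes, Acta2 alone had one within 50000 bases, in the neighbouring gene Fas, and 0 of 169 regions nearest to basal genes were chosen. With so few regions, neither count is read as a lack, and neither was tested against the 0.745% of all distal regions. The numbers of genes with a chosen region depend on how many distal regions each gene has. Over all genes, 905 of 16177 had a chosen region by nearest gene alone. With the 50000 bases, no share over all genes was computed.

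Position was set beside that of all distal regions and of the 25778 with at least 10 CPM in luminal progenitors. Gene spans held 55.3% of the chosen regions, 54.1% of all and 55.1% of the set of that level. The median distance to the nearest annotated start was 22591.5, 23562 and 18018 bases, over the 1024, 140360 and 24837 regions on chromosomes with RefSeq starts. Within 1000 bases of a start lay 2.64% of the chosen regions, 3.14% of all and 7.18% of the set of that level. The chosen regions were near all distal regions in these values, and by the median lay farther from starts than the set with at least 10 CPM. That set was not matched to them in level.

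Promoter regions of the nearest genes seldom showed the pattern that chose the distal regions. Of promoter regions with at least 10 CPM in luminal progenitors, 440 hold the start of a gene nearest to a chosen region. The luminal progenitor class was highest in 106 of them (24.1%), against 17.2% of 7925 other promoter regions, and the ratio to the highest other class was 2 or above in 4 (0.909%, against 0.379%). These 4 belonged to Slc5a1, the sodium-glucose cotransporter (39.2 CPM of promoter reads in luminal progenitors, 14.1 in the next class), Unc5cl, Muc4, a membrane mucin, and Trpm6, a magnesium channel. The Lcn2 promoter had 199 CPM in luminal progenitors, 113 in basal and 110 in fetal luminal-like nuclei, a ratio of 1.76. Its distal region, at 6.15, was chosen for a ratio of at least 3.

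The authors' deposited table of Cicero scores lists co-accessibility of region pairs over all nuclei, including those that chose the regions. At a score of 0.1 or above, 868 of the 1084 regions (80.1%) had a partner and 366 (33.8%) a promoter partner. Distal regions with at least 10 CPM in luminal progenitors had a partner in 75.8% and a promoter partner in 34.9%. The Lcn2 region and the Lcn2 promoter scored 0.707, and Wfdc18 and its promoter 0.386. The Kit promoter was paired with 8 chosen regions, with scores of up to 0.397, and the promoter of Edn1, the vasoactive peptide endothelin-1, with 3.

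The authors' deposited chromVAR scores, which measure how open the sites of a motif are relative to background, were highest in luminal progenitors for 53 of 427 motifs. These scores come from the same nuclei and are given as means over library means. The Elf5 motif had 1.69 ± 0.136 (SD, n = 2) in luminal progenitors, 0.226 ± 0.0715 in fetal luminal-like, -0.704 ± 0.105 in mature luminal, -0.940 ± 0.0295 in basal and -0.996 ± 0.0231 in fetal basal-leaning nuclei. The Nfkb1 motif had 1.41 ± 0.00392 in luminal progenitors, 0.344 ± 0.394 in mature luminal, 0.290 ± 0.280 in basal and -1.31 ± 0.115 in fetal luminal-like nuclei. The Cebpb motif was at 0.620 ± 0.00309 in luminal progenitors and 0.623 ± 0.0908 in basal nuclei, closer together than the basal spread.

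As a description, the rule was also applied to 1 replicate of each stage, and the regions it chose were read in the other. Applied to the replicate 1 libraries of both stages, the rule chose 1335 regions, with a median ratio of 4.15 there and 2.63 in the replicate 2 libraries. In replicate 2, 583 of them (43.7%) were at least 3 times every other class, beside 3.6% of all 25612 regions with at least 10 CPM in luminal progenitors of replicate 1. The luminal progenitor class was highest in 1226 (91.8%), beside 38.6%. Exchanged, 1119 regions chosen in replicate 2 had median ratios of 4.14 and 2.97. In replicate 1, 550 of them (49.2%) were at least 3 times every other class, beside 3.79%, and the luminal progenitor class was highest in 1041 (93.0%), beside 34.3%. With 1 library a stage on each side, no test was possible.

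In the pooled choice, 883 of 1084 regions had at least 10 CPM in both adult libraries, and luminal progenitors were above the 4 other classes in both replicates in 1078. Libraries of the 2 stages were set together by replicate number only, as they are not paired. Both counts largely follow from the rule, which used these same reads, and are no independent result. The matching share over all distal regions was not computed. Across the 1084 regions, log2 CPM of the 2 adult libraries had a Pearson r of 0.70, which is a description of regions that were chosen on the sum of both.

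The share of a cluster's distal reads in the 1084 regions separates nuclei that the rule did not use. By the rule, the share was high in cluster 3 (2.27% and 2.07% in adult replicates 1 and 2) and cluster 7 (2.72% and 2.60%), and 0.170% to 0.431% on average in the fetal clusters and 0.263% to 0.318% in the basal and mature luminal clusters of the other classes. Cluster 10, with 143 adult nuclei, had 1.39% and 1.28%, a mean of 1.34% ± 0.0790 (SD, n = 2). Its 2 values lay between those of clusters 3 and 7 and those of the basal and mature luminal clusters in both adult libraries. Cluster 14, with 84 adult nuclei, had 0.307% and 0.329%, the second of which is above the highest basal or mature luminal value of a library (0.322%). The rule held the basal and mature luminal values low and set no bound on clusters 10 and 14. With 2 libraries a group, an exact permutation test cannot go below a p of 0.33, so none was run.

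**Figure D3:**
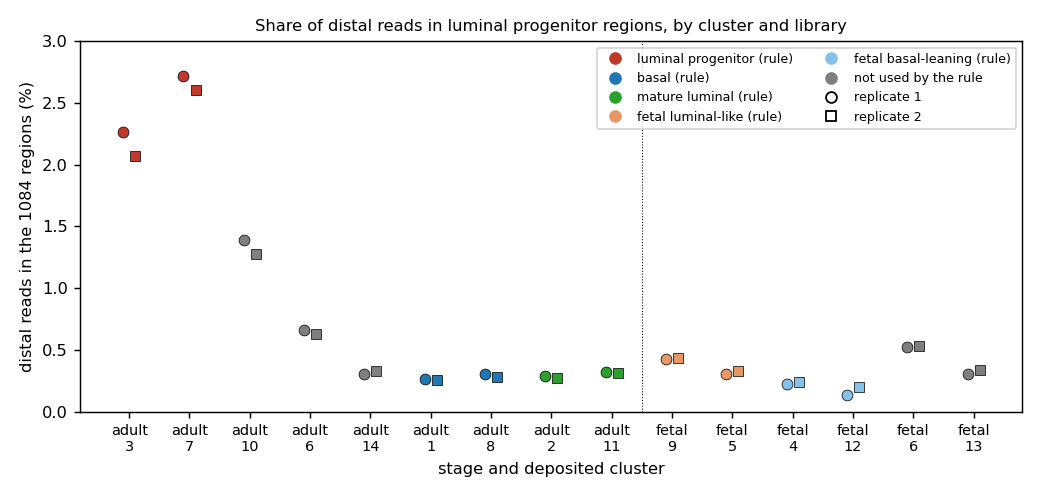
Share of distal reads that fall in the 1084 regions (vertical axis, percent) by stage and deposited cluster (horizontal axis), with a circle for replicate 1 and a square for replicate 2. Colours mark the class of the rule and grey the clusters it did not use. Cluster 10 lies at 1.39% and 1.28%, between clusters 3 and 7 above 2% and all other clusters shown, under 0.7%. The 19 adult nuclei of cluster 9 are not plotted.

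Cluster 10 lay between the luminal types in the regions of both. In single nuclei of cluster 10 the first and ninth deciles of the luminal progenitor share were 0.774% and 2.03%. The ninth decile was 0.535% in clusters 2 and 11, and the first decile was 1.46% in cluster 3 and 1.69% in cluster 7. The mean share in the mature luminal regions was 9.13% ± 0.449 in cluster 10, against 15.9% ± 0.389 in cluster 2 and 1.52% ± 0.0420 in cluster 7 (SD, n = 2). Of the chosen regions, 106 had 0 reads in cluster 10. The most reads fell in regions within Thsd4 (110 CPM) and Lcn2 (79.0 CPM) and 95305 bases from Trib2 (70.7 CPM). Median reads per nucleus were 9143 in cluster 10, against 5508 in cluster 3, 4241 in cluster 7 and 4899 in cluster 2. A barcode pair can be shared by more than 1 nucleus in this protocol. No doublet caller was run, and the part of shared barcodes in this result was not tested. Cluster 14 shares the high mature luminal value (8.89% ± 0.170) and depth (8221.5 reads) but has 2.32% ± 0.177 in the regions chosen for basal nuclei and a low luminal progenitor share.

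**Figure D4:**
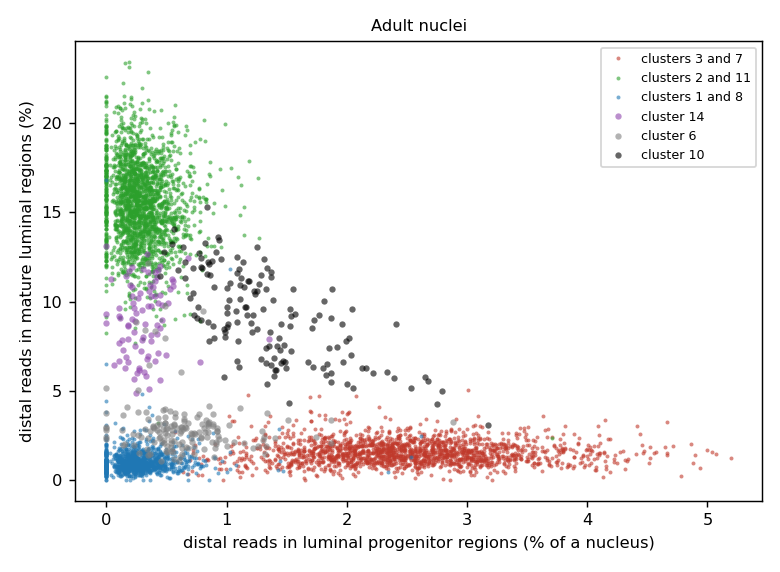
Each point is 1 adult nucleus, with the percent of its distal reads in the 1084 luminal progenitor regions (horizontal axis) and in the 6742 mature luminal regions (vertical axis), coloured by deposited cluster. Cluster 10 (black) fills the space between clusters 3 and 7 (red) and clusters 2 and 11 (green), and cluster 14 (purple) lies at low luminal progenitor shares.

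Cluster 6, whose summed stromal markers were 686 against 135 to 263 in the 5 classes, had a share of 0.657% and 0.630% in adult libraries and 0.527% and 0.534% in fetal libraries. Both adult values lay above both fetal values, and all 4 above the mean of every basal and mature luminal cluster. The rule held basal and mature luminal nuclei low in these regions and set no bound on cluster 6. Its place above them is therefore no independent result. In this cluster, the 10 regions with the most of its reads held 12.2% of its reads in the 1084 regions, led by regions near Fos and in Spidr. No such share was computed for other clusters, so this is not a trait set apart from them. Cluster 13, of 106 fetal nuclei, had 0.321% ± 0.0194 (SD, n = 2).

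The 2 luminal progenitor clusters were compared with each other, since the rule summed them. The fit of edgeR's quasi-likelihood test covered 12 sums of reads, with the library as a block. Regions entered with 10 or more reads per sum on average, as 455 of the 1084 did. Reads of luminal progenitors count in that average, so these 455 do not stand for the rest. Clusters were drawn by the authors from these same nuclei, so each p speaks of the spread between libraries and is no independent sign that clusters differ. The rule added their reads, and cluster 7 gave more of them (1317083 and 1089846 distal reads in adult replicates 1 and 2, against 678541 and 960886 in cluster 3), so a region high in cluster 7 reached the rule more readily. Direction, counts and medians here are therefore a description and no independent result. At an adjusted p under 0.05, 4 of the 455 were called, all higher in cluster 7, where 0.345% of all 46109 tested regions were called higher (0.197% lower and 0.542% in either direction). None was called higher in cluster 3, where also none had an unadjusted p under 0.05. The median log2 fold change was 0.41 over the 455 and 0.01 over all tested regions.

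The called regions belonged to Lcn2, to Plet1, a surface protein of progenitor cells, and to a site 55098 bases from Fos, an AP-1 subunit. In cluster 7 the Lcn2 region had 151 and 111 CPM in adult replicates 1 and 2, and in cluster 3 26.5 and 37.5 CPM. The cluster 7 values lay above the cluster 3 values without overlap, with a log2 fold change of 2.05 (SE 0.38, adjusted p = 0.00048 by edgeR). The first Plet1 region (chr9:50502869-50503868) had 119 and 80.7 CPM against 28.0 and 28.1 CPM (log2 1.85, SE 0.40, edgeR adjusted p = 0.0084). The Fos region (chr12:85532372-85533371) had 134 and 92.7 CPM against 36.8 and 38.5 CPM (log2 1.59, SE 0.36, edgeR adjusted p = 0.013). The second Plet1 region (chr9:50505070-50506069) had 104 and 73.4 CPM against 23.6 and 37.5 CPM (log2 1.56, SE 0.41, edgeR adjusted p = 0.045). Without adult replicate 1 no region was called by edgeR, with 14 at an unadjusted p under 0.05. DESeq2 called none, with 35 at an unadjusted p under 0.05, but its independent filtering left only 2 of the 455, and none of these 4, with an adjusted p. Without that filtering, an alternative chosen after seeing the data, DESeq2 called the Lcn2 region alone (adjusted p = 0.0071). Without fetal replicate 2, which enters through the shared estimate of spread and the filter on reads (484 regions then tested), 2 were called. The call of the second Plet1 region was missed in 9 of 11 alternatives with a value, among them no replicate block (edgeR adjusted p = 0.058), no TMM scaling (0.064) and midpoint counting (0.090), over a range of 0.032 to 0.62 in all.

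The 2 fetal classes were compared in the same 455 regions. The rule set the same upper bound on both fetal classes, and regions entered the fit mainly through their luminal progenitor reads, so the counts, medians and regions named below describe values that the rule used and do not set these regions apart from the rest. Of the 455, 32 were called higher in the fetal luminal-like class, where 2.62% of all tested regions were called higher, 2.07% lower and 4.7% in either direction. That is 7.03% of the 455, 9 of the 32 had 0 reads in the fetal basal-leaning class, and 0 were called lower by edgeR and by DESeq2, with 6 lower at an unadjusted p under 0.05 by edgeR. The median log2 fold change was 0.91 over the 455 and 0.08 over all tested regions. With 3 reads in place of 0, it was 0.92 over the 450 with more than 3 reads in a class. The count rested on both fetal libraries: it was 6 without fetal replicate 1, 2 without fetal replicate 2, 21 with DESeq2 and 17 with DESeq2 without independent filtering.

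Among the called regions, those with the largest fitted change had no reads in the fetal basal-leaning class. Their folds and p values are also drawn from values that the rule used, and are no independent result. The region in Rfk, riboflavin kinase (chr19:17399807-17400806), had 5.62 and 15.6 CPM in fetal luminal-like nuclei of replicates 1 and 2, at least 11.8-fold higher than 3 reads over both basal-leaning sums would give (edgeR adjusted p = 0.00014). The region in Thada (chr17:84408350-84409349) had 5.00 and 11.2 CPM, at least 8.73-fold higher (edgeR adjusted p = 0.0014). The region in Rfwd3, a ubiquitin ligase (chr8:111285255-111286254), had 6.25 and 7.79 CPM, at least 6.85-fold higher (edgeR adjusted p = 0.0035). All 3 had 0 reads in both basal-leaning libraries, and their luminal progenitor levels were 46.8, 31.8 and 39.4 CPM. Thada and Rfk were not called without fetal replicate 2, and Rfwd3 without either fetal library.

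Adult mature luminal and basal nuclei split the regions in both directions. Of the 455, 70 were called higher in mature luminal nuclei (15.4%) and 52 higher in basal nuclei (11.4%), below the 24.4% and 23.6% of all tested regions, 48.0% in all. The rule bounds both classes by the luminal progenitor level, and regions entered the fit mainly through luminal progenitor reads. Why fewer of the 455 were called was not tested. Counts and medians therefore describe values that the rule used and are no independent result. The same holds for the folds and p values of the regions named in the next paragraph. The median log2 fold change was 0.39 over the 455 and 0.18 over all tested regions, and 0.20 over the 436 with more than 3 reads in a class when 3 reads stood in for 0. Scaling by total distal reads alone moved the median of all tested regions to -0.01 and the split to 62 and 59. Without adult replicate 1 the count fell to 58 and without adult replicate 2 to 62.

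The same Rfk region had the largest fitted change among those higher in mature luminal nuclei, with 15.0 and 12.1 CPM in mature luminal nuclei and 0 reads in basal nuclei, at least 10.3-fold higher than 3 basal reads would give (edgeR adjusted p = 8.3e-07). In Muc4 (chr16:32738610-32739609) the values were 6.49 and 11.8 CPM against 0 reads, and near Lmtk2, a membrane kinase (chr5:144086154-144087153), 4.87 and 11.2 CPM against 0 reads. Both missed the threshold without adult replicate 2. In the opposite direction, regions in Itsn1, an endocytic scaffold (chr16:91869027-91870026), near Akap13 (chr7:75774240-75775239) and near Ctsd, the protease cathepsin D (chr7:142391383-142392382), had 0 reads in mature luminal nuclei. Basal nuclei had 11.5 and 4.33 CPM at Itsn1, 10.1 and 3.71 CPM at Akap13 and 5.75 and 4.95 CPM at Ctsd. Against 3 mature luminal reads these are at least 12.6-fold, 11.0-fold and 10.1-fold higher, from 15, 13 and 12 basal reads.

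**Figure D5:**
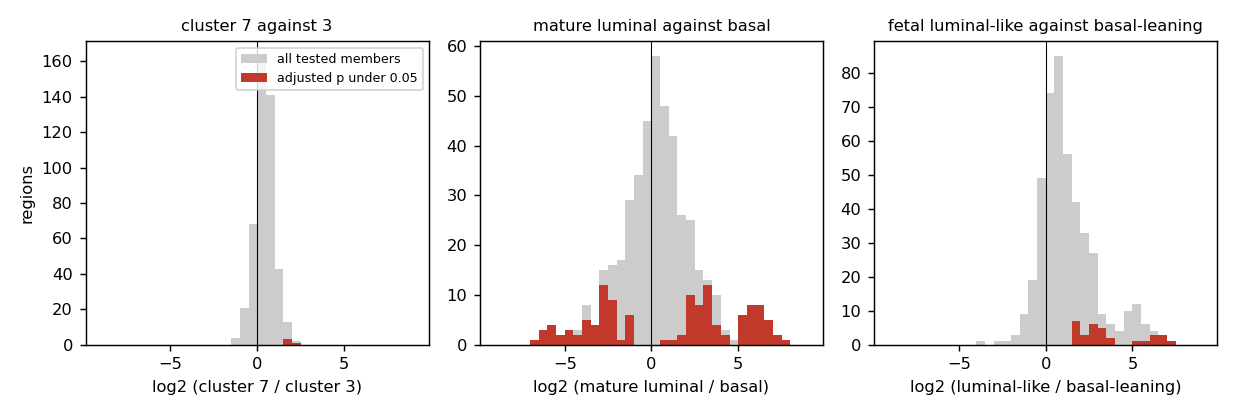
Fitted log2 fold changes (horizontal axes) of the 455 tested regions (grey) and of those with an edgeR adjusted p under 0.05 (red), as counts of regions (vertical axes), in 3 comparisons. Called regions lie on the right in the left and right panels (4 and 32 regions) and on both sides in the middle panel (70 and 52), and bars beyond 5 on either side hold regions with few or no reads in the lower group.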

How the data were processed

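Reads came as intervals with nucleus barcodes, and the authors' deposited region lists, cluster numbers, chromVAR scores, Cicero scores and read counts per nucleus were used as they stood. Bowtie2, MACS2 and bedtools and build mm10 are named, per the submitters' processing notes, with no version or role. The shift of cut sites, removal of duplicates, motif set and clustering method are not given in the sources used here. Reads of the 7846 listed nuclei were counted in each region of 1000 bases they overlapped by 1 base or more. Every nucleus had at least 2000 reads by the deposited count.

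Genes, nearest by span, are from RefSeq (GRCm38.p6, the same assembly as mm10). Chromosome 18 regions were counted and not named. Sums per class and library were tested with edgeR 4.0.16 in R 4.3.3 (TMM, mean of at least 10 reads, Benjamini-Hochberg over 46109 regions). The library was a block within each stage, because the sums of 1 library come from the same sample. The SE is the absolute log2 fold change over the square root of F. DESeq2 1.42.0 was an alternative. The labels call the replicates biological and say no more of their source. On simulated counts for cluster 7 against cluster 3 over 46109 regions, 18 of 100 2-fold and 99 of 100 4-fold changes were called, with 6 false calls. The simulation gave all regions the same fixed spread, and libraries differed in depth alone. Changes were placed only in regions with at least 10 reads per cluster 3 or 7 sum on average. That spread was not matched to the data, so these figures need not hold for the real counts.

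The members, gene lists and markers were chosen with earlier results of these data known. Named regions were the 10 largest ratios, the highest region at up to 8 genes a list (9 for luminal progenitor genes), up to 3 called regions without overlap in each direction of a test (4 for cluster 7 against cluster 3), the densest windows of 100000 bases (6, as several tied) and the 3 regions on each side of the threshold. Other regions named for most reads, promoters or sequence were chosen after their values were seen. Listed genes left unnamed had none or lay on chromosome 18. Work used Python 3.11.15, numpy 2.4.6, pandas 2.3.3 and matplotlib 3.10.9.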

Additional observations from a re-analysis of the deposited data

How the results depend on the processing

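The count of 1084 regions became 300 with CPM of all reads, 1760 and 446 with a minimum of 5 and 20 CPM, and 2462 and 359 with ratios of 2 and 5. It stayed within 1.5 times under midpoint counting, 0.1 or 2 added, each library left out (1059 to 1347, with 789 to 996 shared) and, an alternative chosen after seeing the data, adult nuclei only for adult classes and fetal nuclei only for fetal classes (1097, 1077 shared). Without the replicate block, 3, 130 and 38 regions were called in place of 4, 122 and 32. DESeq2 called 0 for cluster 7 against cluster 3, where 2 of 455 regions had an adjusted p, and 21 for the fetal comparison. Without independent filtering, also chosen after seeing the data, it called 1 and 17. A minimum of 20 reads per sum left 138 regions and 50 calls between mature luminal and basal nuclei. Leaving out a library gave 0 to 4, 58 to 137 and 2 to 45 calls, the lone sum of a class then being taken to vary like the others. Of 156 refits of the 13 tested regions named, 147 gave an adjusted p. Of these 126 kept their call and 21 missed it, 9 at the second Plet1 region, with no change of direction. The 9 without one were DESeq2 for the 4 cluster 7 regions, 20 reads for Muc4, Itsn1 and Akap13, and each adult library left out for Itsn1. The fetal cluster 6 share was 0.512% by midpoint and 0.514% in deeper nuclei, and the other shares then moved by less than 1 SD. With 2 libraries, leaving 1 out cannot move a mean by 1 SD. Depth limits the choice, since 10 CPM is about 41 reads. The planned motif search in all distal sequences was not run.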

Other observations

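A few nuclei stood outside the stage of their cluster. Cluster 9 is almost wholly fetal, with 1037 fetal nuclei, but holds 19 adult nuclei. These had 1.24% (adult replicate 1, 9 nuclei) and 1.28% (adult replicate 2, 10 nuclei) of their distal reads in the luminal progenitor regions, while fetal nuclei of cluster 9 had 0.425% and 0.436%. Of the 19, 12 had a share of 1% or more, against 26 of the 1037. Cluster 9 is part of the fetal luminal-like class, which the rule bounded. The low share of its fetal nuclei is therefore a value that the rule used, while the 19 adult nuclei added little to that sum. Nuclei of a library are not replicates. No test was run on so few nuclei.

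In cluster 6 the most reads among the chosen regions fell 55098 bases from Fos (68 reads, 141 CPM), in Spidr (44 reads, 90.9 CPM) and 3588 bases from Rhoj, a small GTPase (43 reads, 88.8 CPM). In luminal progenitors the same regions had 83.5, 55.7 and 25.4 CPM. These regions were picked by their reads in cluster 6, and 569 of the 1084 had 0 reads there.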
